A study of Rattus norvegicus with 8 samples.

Results

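Axon guidance ligands and receptors were followed through the RNA-seq of rat hippocampal neurons that were fractionated into a somatic and a process compartment. The members were chosen by gene symbol alone: semaphorins of the Sema3 to Sema7 groups, plexins, neuropilins, ephrins, Eph receptors, Slits, Robo receptors, netrins and Unc5 receptors. This gave 68 of the 28909 symbols in the count table, of which 35 are ligands and 32 are receptors, and the remaining match, Unc5cl, is counted with neither. Primary neurons of embryonic Sprague-Dawley rats were grown on porous cell culture inserts, with somata on the upper side and processes (axons and dendrites) that had passed the pores on the lower side. The cultures received picrotoxin (PTX), an antagonist of GABA-A receptors, or vehicle for 48 h between day 18 and day 20 in vitro. Total RNA of each compartment was depleted of ribosomal RNA and sequenced from 2 libraries in each of the 4 groups: somata control, somata PTX, processes control and processes PTX. The labels give no genotype or transgene and the neurons of all 4 groups share their strain, culture age and insert, so the groups differ by compartment and by drug.

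Guidance cues steer growing axons and dendrites, and in mature neurons many of them act at synapses and dendritic spines. Semaphorins signal through plexins, and the secreted Sema3 proteins mostly need a neuropilin as the ligand-binding partner of the plexin. Ephrins are membrane-bound ligands of the Eph receptor tyrosine kinases, Slits are secreted ligands of Robo receptors, and netrins bind Dcc and the Unc5 receptors. In the hippocampus these families are known for the layering of afferent axons and for the formation, pruning and plasticity of excitatory synapses.

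The upstream sequences of 3 receptor genes are shown because their transcripts are those on which the PTX results turn: Unc5b and Plxnb1 were called in both compartments, and Plxna2, called in somata, was picked after the motif search because it held matches to the motif of the activity-induced EGR factors. Each is the 250 bases before the gene's start in RefSeq's table for the assembly GRCr8, 5′ to 3′ on the gene's strand. They are chr20:29307271-29307520 on the minus strand for Unc5b, chr8:118622911-118623160 on the plus strand for Plxnb1 and chr13:108691280-108691529 on the plus strand for Plxna2. Capitals mark motif matches.
Unc5b: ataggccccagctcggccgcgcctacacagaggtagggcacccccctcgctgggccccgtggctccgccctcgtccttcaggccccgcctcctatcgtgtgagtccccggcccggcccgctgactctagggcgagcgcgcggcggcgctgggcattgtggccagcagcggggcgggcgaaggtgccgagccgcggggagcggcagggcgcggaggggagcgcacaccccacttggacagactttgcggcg
Plxnb1: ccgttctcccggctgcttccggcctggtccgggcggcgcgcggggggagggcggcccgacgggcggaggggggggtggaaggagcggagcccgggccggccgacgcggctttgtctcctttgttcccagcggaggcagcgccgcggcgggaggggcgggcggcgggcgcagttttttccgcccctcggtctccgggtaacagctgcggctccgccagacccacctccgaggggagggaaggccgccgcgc
Plxna2: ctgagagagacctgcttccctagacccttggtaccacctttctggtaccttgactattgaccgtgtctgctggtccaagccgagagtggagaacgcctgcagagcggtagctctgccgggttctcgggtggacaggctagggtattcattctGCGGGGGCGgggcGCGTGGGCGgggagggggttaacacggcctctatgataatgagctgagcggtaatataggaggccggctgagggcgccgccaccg

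Motif letters were searched on both strands for the cAMP response element (CRE, TGACGTCA), its half-site (TGACG, which every full CRE also contains), the AP-1 motif (TGANTCA), the EGR motif (GCGNGGGCG) and the E-box (CACGTG). The promoter of Plxna2 held 2 EGR matches, and no motif matched in those of Unc5b and Plxnb1. Sequences were found for 53 of the 68 members. An EGR match lay in 8 of these 53 (15.1%) and in 4.53% of all 27457 promoters of this length, and the half-site in 7 (13.2%) against 19% of all. Of the called members with a sequence, 0 of the 3 that rose with PTX and 1 of the 3 that fell (Plxna2) held an EGR match. A full CRE and an AP-1 match were each found in 1 member (1.89%), against 1.7% and 6.36% of all promoters, and the E-box in 4 (7.55%) against 5.79%. The median GC content was 63.6% for the members and 52% for all promoters, so these shares are a description of sequences that differ in base composition. The members without a sequence were Efnb3, Epha4, Ntn1, Plxna1, Plxna4, Sema3a, Sema3b, Sema3f, Sema4d, Sema4g, Sema5a, Slit1, Slit2, Unc5c and Unc5d.

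Libraries held between 12290890 and 18455662 counts. The members received 39605 to 48784 of these in each somata library and 11036 to 12702 in each process library, and a tested member had a median of 458 reads in somata control and 117 in processes control, so that levels in processes are less precise. The unit of levels is CPM (counts per 1e6 counts of the library) after scaling by edgeR's TMM method, and because they are not divided by transcript length they are compared between samples and not between genes. Among marker genes, the summed CPM of 10 astrocyte markers was 4168 and 4563 in somata control and 15026 and 13414 in processes control. Of these markers 5 were called higher in processes and 2 lower. Any difference in such sums between compartments rests on the TMM factors (1.81 to 1.93 in somata, 0.486 to 0.570 in processes). The sums were not computed with another scaling. The summed CPM of 10 oligodendrocyte lineage markers was higher in replicate 2 than in replicate 1 of each group (352 and 543 in somata control, 312 and 481 in somata PTX, 516 and 658 in processes control, 585 and 702 in processes PTX). Of 8 pan-neuronal markers the sum was 2282 and 2002 in somata control and 5714 and 5333 in processes control, a rise carried by Map2, a dendritic cytoskeletal transcript (mean of 936 and 4609 CPM), while Snap25 (−0.37), Syt1 (−0.98) and Tubb3 (−0.57) were called lower on the log2 scale and Rbfox3 (0.52) higher. Microglial markers summed to at most 2.48 CPM and endothelial and mural markers to at most 1.26 CPM in any library, and 1 of the 5 endothelial and mural markers in the table was at 0 throughout. In such bulk samples fewer cells of a type and less RNA per cell cannot be told apart.

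Of the 68 members, 60 had more than 20 reads in at least 2 libraries and were tested, 32 ligands and 28 receptors. Efna1, Epha2, Epha8, Ntn5, Robo3, Robo4, Sema3g and Unc5cl did not pass this filter. Among them, Sema3g, a secreted semaphorin, had 19 and 11 reads in somata control, 2 and 0 in somata PTX, and at most 1 in each process library. Epha2 went the other way, with 5 and 6 reads in somata control, 31 and 15 in somata PTX, and at most 6 in each process library. By CPM, which grows with transcript length and gives no order of transcript numbers between genes, the 3 ligands named for their mean over the 8 libraries were Sema6d, a transmembrane semaphorin (110 CPM), the ephrin Efnb3 (75.2 CPM) and Sema5a, a transmembrane semaphorin with thrombospondin repeats (50.9 CPM). Plxnb2, a receptor of Sema4 proteins (81.6 CPM), Epha5, a receptor of ephrin-A ligands (79.8 CPM), and Plxna1, which signals for Sema3 proteins with neuropilins (74.0 CPM), were the receptors named in the same way.

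The first comparison asked which members were present at different relative levels in processes and somata of control cultures. Most guidance transcripts were lower in processes. A gene was called when its p-value from edgeR's quasi-likelihood test, adjusted by the Benjamini-Hochberg method over all 14309 tested genes, was below 0.05. By this rule 33 of the 60 members (55%) were lower in processes, where 21.9% of all tested genes were called lower, and 3 (5%) were higher, where 25.8% of all were. The lower members comprised 17 of 32 ligands and 16 of 28 receptors, and 50 of the 60 log2 fold changes were negative. The median log2 fold change (logFC) of the members was −0.61, beside −0.05 for all tested genes. The 2 groups did not overlap for 46 of the 60 members and for 74.9% of all tested genes.

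**Figure D1:**
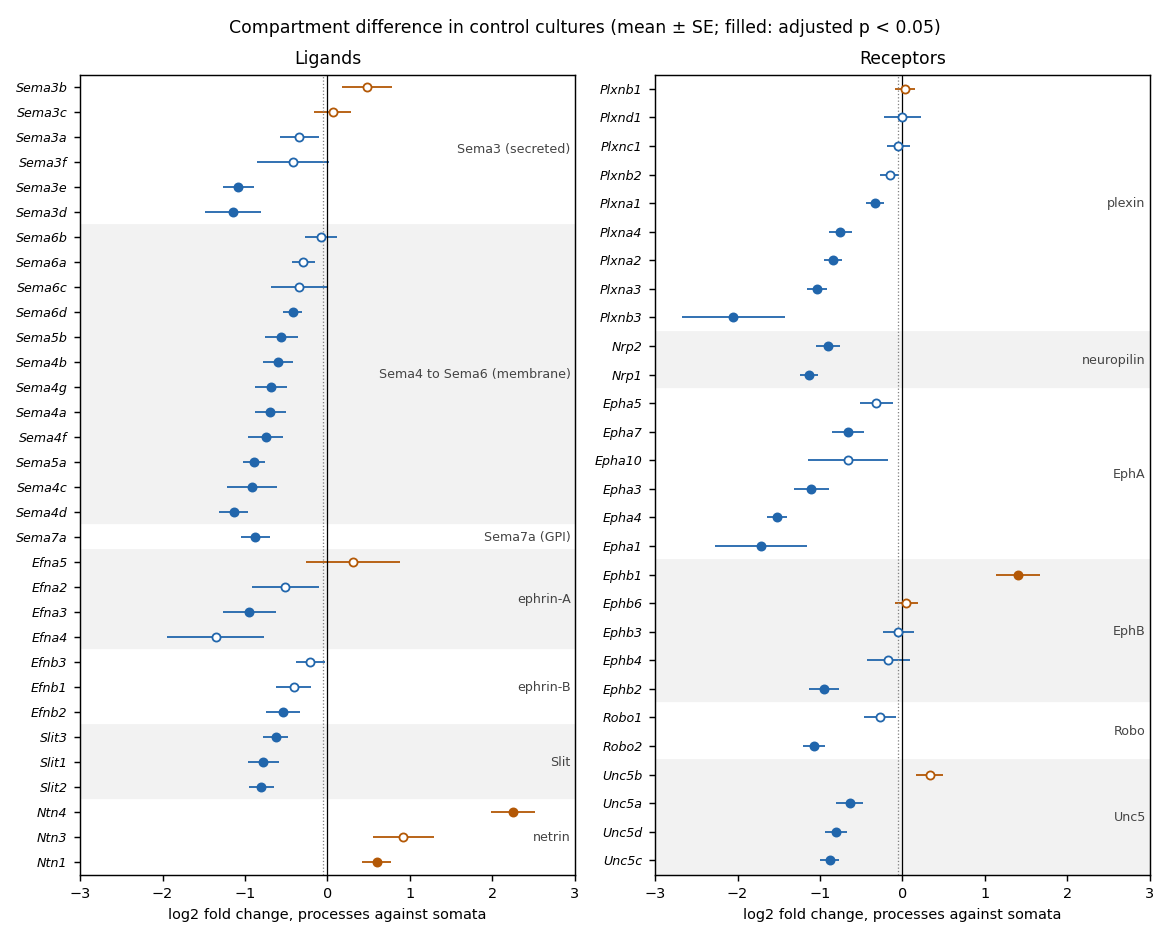
Log2 fold change of each of the 60 tested members between processes and somata of control cultures (x axis, with SE), grouped by family, ligands on the left and receptors on the right. Filled symbols passed the adjusted p threshold, orange is above and blue below 0, and the dotted line marks the median of all tested genes at −0.05. Most points lie left of 0, and Ntn4, Ephb1, Ntn3 and Ntn1 lie furthest to the right, of which Ephb1, Ntn3 and Ntn1 move below 0 (−0.39, −0.89 and −1.21) with scaling by library size alone.

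Among the ligands, the netrins were the family on the other side, although with scaling by library size alone the logFCs of Ntn1 and Ntn3 were −1.21 and −0.89 and that of Ntn4 alone stayed positive (0.44). Ntn4, a laminin-related netrin of basement membranes, was measured at 7.65 and 5.52 CPM in somata control and at 36.1 and 26.7 CPM in processes control. Both process libraries lay far above both somata libraries, and the logFC was 2.26 ± 0.27 (SE, 4.78-fold, adjusted p = 6.0e-05). Ntn1, the netrin that attracts or repels axons depending on the receptor, was at 5.65 and 5.09 CPM in somata and at 8.14 and 8.10 CPM in processes, with a logFC of 0.60 ± 0.18 (SE, adjusted p = 0.0187). Ntn3 had a logFC of 0.92 and was not called in the reported fit, which has no block (adjusted p = 0.0592). It was called with the replicate number as a block (adjusted p = 0.0137). The call of Ntn1 was lost with DESeq2 (adjusted p = 0.0640), with upper quartile scaling (adjusted p = 0.0891) and when any 1 of the 4 libraries compared was left out (adjusted p between 0.0504 and 0.107).

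All 3 Slits were lower in processes, with logFCs between −0.80 and −0.63. The membrane-bound Sema4 to Sema6 group had 12 negative logFCs of 12, from −1.14 to −0.07, and 9 of them were called. The largest of these differences was that of Sema4d, a transmembrane semaphorin that binds plexin-B1, with 22.6 and 22.3 CPM in somata and 8.70 and 11.7 CPM in processes (logFC −1.14 ± 0.17 (SE), adjusted p = 0.000353). Sema3d and Sema3e, both secreted, were lower by a similar amount. Sema3e, which can bind plexin-D1 without a neuropilin, was at 35.1 and 32.8 CPM in somata and at 16.5 and 15.6 CPM in processes (logFC −1.08 ± 0.19 (SE), adjusted p = 0.00100). For Sema3d, the values were 3.74 and 3.09 CPM in somata and 1.90 and 1.17 CPM in processes (logFC −1.14 ± 0.34 (SE), adjusted p = 0.0181), and the call was lost without somata control replicate 1 (adjusted p = 0.0789) or processes control replicate 2 (logFC −0.84, adjusted p = 0.136). Of the ephrins, Efnb2 (logFC −0.54) and Efna3 (logFC −0.95) were called lower, and the other 5 tested ephrins had logFCs from −1.36 to 0.31. Efna4, with 1.14 CPM or less in every library, had the lowest of these. It was called with the replicate block but not in the reported fit (adjusted p = 0.0776, and 0.0465 with the block).

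Among the receptors, Ephb1, a receptor tyrosine kinase for ephrin-B ligands, was the one called higher in processes, with a logFC of −0.39 where libraries were scaled by size alone. It was measured at 17.9 and 27.8 CPM in somata control and at 47.2 and 74.2 CPM in processes control. The replicates differed within each compartment, yet the 2 compartments did not overlap, and the logFC was 1.40 ± 0.27 (SE, 2.65-fold, adjusted p = 0.00163). The other 4 EphB receptors had logFCs from −0.95 to 0.05, and of these Ephb2 was called lower (adjusted p = 0.00170). All 6 tested EphA receptors had negative logFCs, and 4 were called. Epha4, which binds ephrins of both classes, had 122 and 109 CPM in somata and 39.4 and 40.8 CPM in processes (logFC −1.52 ± 0.12 (SE), adjusted p = 4.6e-06). Epha3, a receptor of ephrin-A ligands, was at 9.01 and 7.48 CPM in somata and at 4.24 and 3.41 CPM in processes (logFC −1.10 ± 0.22 (SE), adjusted p = 0.00184). Epha1 had at most 1.04 CPM in each library, and its logFC was −1.72 ± 0.56 (SE, adjusted p = 0.0268). This call was lost when any 1 of the 4 libraries compared was left out, with logFCs from −2.07 to −1.43 and adjusted p from 0.0578 to 0.140.

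Both neuropilins were lower in processes. Nrp1, the Sema3a-binding neuropilin, was at 83.2 and 84.3 CPM in somata and at 37.1 and 39.2 CPM in processes (logFC −1.13 ± 0.11 (SE), adjusted p = 1.2e-05), and Nrp2 had a logFC of −0.90. Of the plexins, 5 of 9 were called lower. Plxnb3, a receptor of Sema5a that is known from oligodendrocytes as well as neurons, had the lowest logFC of all members, −2.06 ± 0.63 (SE, adjusted p = 0.0197). Its level was 5.40 and 14.6 CPM in somata and 1.45 and 3.41 CPM in processes, with replicate 2 above replicate 1 each time, as for the oligodendrocyte lineage markers. Without somata control replicate 2 its logFC was −1.17 (adjusted p = 0.151), and without processes control replicate 1 it was −1.56 (adjusted p = 0.157). What the oligodendrocyte markers contribute to the Plxnb3 values was not tested. In contrast to the called plexins, Plxnb1, Plxnd1, Plxnc1 and Plxnb2 had logFCs from −0.16 to 0.03. Of the Unc5 receptors, Unc5a, Unc5c and Unc5d were called lower (logFC from −0.88 to −0.64), and Unc5b had a logFC of 0.33 (adjusted p = 0.120, and 0.0189 with the block), which became −1.49 with scaling by library size alone. Robo2 was called lower (logFC −1.07), and Robo1 had a logFC of −0.27 (adjusted p = 0.264, and 0.0210 with the block).

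These compartment values are relative to the other genes of each library. With scaling by library size alone, the median logFC of all tested genes was −1.86 and that of the members −2.43. Then 58 members were called lower, beside 92.7% of all tested genes, and 0 higher, beside 191 of the 14309 genes. With this scaling 1 of the 60 logFCs was positive, that of Ntn4 (0.44, adjusted p = 0.0854). Those of Ephb1 (−0.39) and Ntn1 (−1.21) were negative but still above the median gene. Upper quartile scaling, with a median of −0.25 over all genes, gave 38 lower and 2 higher, beside 32.9% and 19.2% of all tested genes. With the replicate block 38 members were lower, beside 28% of all tested genes, and 5 were higher, beside 29.8%. Without processes control replicate 2 the members' median logFC was −0.47, beside −0.04 for all tested genes. With TMM scaling 5 of 10 astrocyte markers were called higher in processes and 2 lower, Gfap among the former with a logFC of 2.60. The markers were not compared under the other scalings, and the part of glial RNA in the netrin and Ephb1 differences was not tested.

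In PTX-treated cultures the same comparison of compartments gave 26 members (43.3%) lower in processes, beside 24% of all tested genes, and 5 (8.33%) higher, beside 25.7%. The members' median logFC was −0.49 and that of all tested genes −0.05. The 5 higher members were Ntn4 (logFC 2.56), Ephb1 (1.80), Ntn1 (1.32), Plxnd1, the Sema3e receptor (0.77, adjusted p = 0.0133), and Unc5b, a netrin receptor (0.45, adjusted p = 0.0330), of which Ntn4 alone stayed positive with scaling by library size (0.72), where the others were at −0.02, −0.50, −1.06 and −1.39 in that order. At the other end were Plxnb3 (−2.27), Efna3 (−1.76), Epha4 (−1.72), Nrp1 (−1.54) and Robo2 (−1.51). The 3 Slits were again all called lower, and all 12 logFCs of the Sema4 to Sema6 group were again negative, 5 of them called. The members' median logFC was −0.39 without somata PTX replicate 1 (all tested genes −0.03) and −0.66 without processes PTX replicate 1 (all tested genes −0.05). Library size scaling left 1 called higher and 58 lower, beside 1.26% and 93.1% of all tested genes. Upper quartile scaling gave 4 higher and 33 lower, beside 20.3% and 33.3%.

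The second comparison asked which members changed with PTX in somata. By the same test 4 members rose (6.67%, beside 2.09% of all tested genes) and 5 fell (8.33%, beside 1.5%). The 4 that rose were the ligands Sema3a and Sema7a and the receptors Unc5b and Robo2, and the 5 that fell were all receptors: the plexins Plxna1, Plxna2, Plxna3 and Plxnb1, and Unc5d. The median logFC was −0.19 over the 60 members and −0.01 over all tested genes, and the groups did not overlap for 36 members and for 49% of all tested genes.

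**Figure D2:**
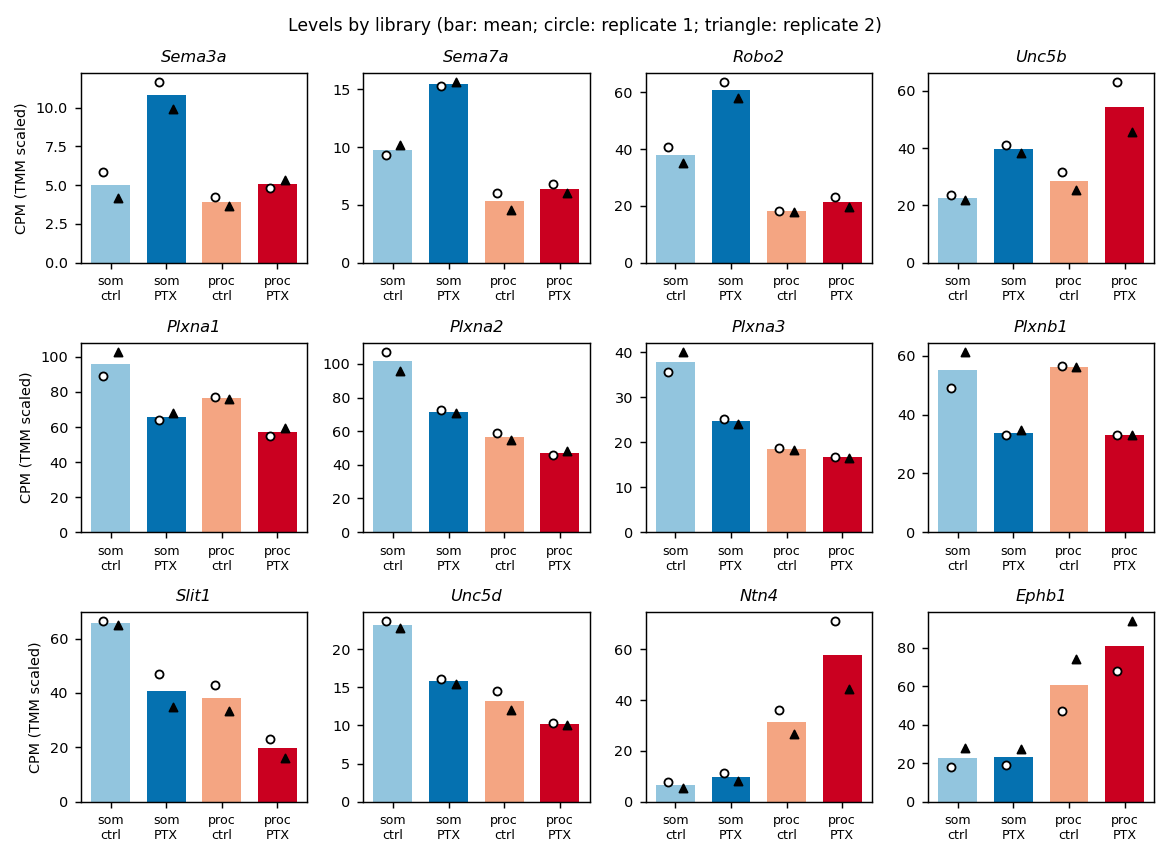
TMM-scaled CPM (y axis, starting at 0) of 12 members in somata (som) and processes (proc) of control and PTX cultures. Bars are means of 2 libraries, circles replicate 1 and triangles replicate 2. The 2 PTX libraries of Unc5b lie above, and those of Plxnb1 and Slit1 below, the 2 control libraries in each compartment, while Ntn4 and Ephb1 are higher in processes than in somata, a direction that Ephb1 loses with scaling by library size alone.

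Sema3a, a secreted repellent that acts through Nrp1 and A-type plexins, was measured at 5.87 and 4.15 CPM in somata control and at 11.6 and 9.95 CPM in somata PTX. Both PTX libraries exceeded both controls, and the logFC was 1.11 ± 0.19 (SE, 2.16-fold, adjusted p = 0.0102). Its process libraries lay between 3.64 and 5.33 CPM, where the logFC was 0.37 ± 0.26 (SE, adjusted p = 0.536). Sema7a, a GPI-anchored semaphorin that binds plexin-C1 and integrins, had 9.31 and 10.2 CPM in control and 15.3 and 15.6 CPM in PTX somata, again without overlap (logFC 0.67 ± 0.14 (SE), adjusted p = 0.0290). In processes its logFC was 0.27 ± 0.20 (SE, adjusted p = 0.565).

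Robo2, a Slit receptor, was at 40.8 and 35.1 CPM in control and at 63.6 and 58.0 CPM in PTX somata, with a logFC of 0.68 ± 0.12 (SE, adjusted p = 0.0114). The 4 process libraries held 18 to 23.2 CPM (logFC 0.24 ± 0.14 (SE), adjusted p = 0.440). Its paralogue Robo1 was measured at 48.8 and 41.1 CPM in control and at 35.6 and 26.4 CPM in PTX somata. That logFC of −0.53 was called with the replicate block but not in the reported fit (adjusted p = 0.177, and 0.000196 with the block). The 2 Slit receptors thus had logFCs of opposite sign in somata.

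Of the netrin receptors, Unc5b, known for repulsive signalling and for its part in vessel guidance and cell survival, was at 23.6 and 21.8 CPM in control and at 41.0 and 38.5 CPM in PTX somata (logFC 0.81 ± 0.16 (SE), 1.75-fold, adjusted p = 0.0172). Unc5d, which also binds FLRT proteins, changed the other way, from 23.7 and 22.8 CPM to 16.1 and 15.5 CPM (logFC −0.56 ± 0.12 (SE), adjusted p = 0.0341). The remaining members of the family had negative logFCs that were called with the block but not in the reported fit. These were −0.58 for Unc5a (adjusted p = 0.0607, and 0.000945 with the block) and −0.34 for Unc5c (adjusted p = 0.143, and 0.00841 with the block).

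The plexins were the family with the most calls in somata, 4 of 9, and 8 of their 9 logFCs were negative, with a median of −0.50. Plxnb1, the Sema4d receptor, had 49.2 and 61.3 CPM in control and 33.0 and 34.6 CPM in PTX somata (logFC −0.71 ± 0.12 (SE), 1.63-fold lower, adjusted p = 0.00953). Plxna3, which pairs with Nrp2 for Sema3f, had 35.6 and 40.1 CPM against 25.2 and 24.1 CPM (logFC −0.62 ± 0.11 (SE), adjusted p = 0.0111). For both the control and PTX libraries were clearly apart. Plxna1 was at 89.4 and 103 CPM in control and at 63.9 and 67.8 CPM in PTX somata (logFC −0.55 ± 0.11 (SE), adjusted p = 0.0197). Plxna2, whose upstream sequence held the EGR matches, was at 107 and 95.7 CPM in control and at 72.8 and 70.6 CPM in PTX somata (logFC −0.50 ± 0.10 (SE), adjusted p = 0.0256). The A-type plexin with a positive logFC was Plxna4 (0.32, adjusted p = 0.263, and 0.0186 with the block). Nrp1, their partner in binding Sema3a, had 83.2 and 84.3 CPM in control and 115 and 106 CPM in PTX somata (logFC 0.39, adjusted p = 0.0580, and 0.00230 with the block).

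When the replicate number entered the fit as a block, the calls in somata grew to 8 members that rose, beside 7.21% of all tested genes, and 21 that fell, beside 6.79%. Those called lower with the block but not in the reported fit included 8 ligands. Sema3e had the second lowest logFC among these ligands (−0.72, adjusted p = 0.0509, and 0.000108 with the block), after Sema6c (−0.83, adjusted p = 0.198, and 0.00554 with the block). Slit1, a Robo ligand, had a logFC of −0.68 (adjusted p = 0.0659, and 2.1e-05 with the block). The logFCs of Sema4g, Efnb2, Sema5b, Efnb3 and Sema6b lay between −0.56 and −0.31, with adjusted p from 0.115 to 0.485 without the block and from 0.00361 to 0.0408 with it. Among the receptors, Plxnb3 had the lowest logFC (−1.11, adjusted p = 0.315, and 2.2e-05 with the block). Its 2 replicates differed in level, and their log2 differences were −1.01 and −1.10. The logFCs of Ephb2, Plxnc1, Epha4 and Epha5 were between −0.51 and −0.26. They were called with the block (adjusted p from 0.00651 to 0.0412) but not in the reported fit (adjusted p from 0.118 to 0.625). The ligands called higher with the block but not in the reported fit were Ntn4 (0.57, adjusted p = 0.335, and 0.00328 with the block) and Sema3d (0.56, adjusted p = 0.321, and 0.0497 with the block).

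The calls in somata depended on single libraries, for the members as for all tested genes. The members' median logFC was −0.18 without somata control replicate 1 and −0.27 without its replicate 2, beside −0.01 for all tested genes each time. Without somata PTX replicate 1 it was −0.31 (all tested genes −0.02), and without its replicate 2 it was −0.12 (all tested genes −0.01). The lone library left in a group was then assumed to vary like the others. The logFCs of the 9 called members kept their sign throughout, for example from 0.87 to 1.37 for Sema3a and from −0.86 to −0.55 for Plxnb1. Library size scaling, which placed the median of all genes at 0.06, gave 4 members that rose and 1 that fell, beside 2.45% and 0.978% of all tested genes. In these libraries 2 of 5 tested inhibitory neuron markers rose with PTX (Gad1, logFC 0.82, and Gad2, 0.92), with a summed CPM from 238 to 338 in control and from 414 to 543 in PTX somata. Of 6 excitatory neuron markers 2 fell (Camk2a and Neurod6), with sums of 427 to 446 and 285 to 308. Of the other markers Rbfox3 (pan-neuronal, −0.67) and Gja1 (astrocyte, −0.61) fell and Cdk1 (proliferation, 0.98) rose on the log2 scale. What a shift between neuron classes contributes to the changes of guidance genes was not tested.

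The third comparison asked which members changed with PTX in processes. By the same test 1 member rose (1.67%, beside 1.64% of all tested genes) and 2 fell (3.33%, beside 2.1%), shares close to those of all genes. The members' median logFC was −0.07 and that of all tested genes −0.01, and the groups did not overlap for 32 members and for 42.4% of all tested genes.

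Unc5b rose in processes too, from 31.6 and 25.5 CPM in control to 63.0 and 45.7 CPM in PTX (logFC 0.93 ± 0.17 (SE), 1.90-fold, adjusted p = 0.0140). Plxnb1 had 56.5 and 56.0 CPM in control and 33.1 and 33.2 CPM in PTX processes (logFC −0.76 ± 0.13 (SE), 1.70-fold lower, adjusted p = 0.0107). Slit1, called in processes, was measured at 43.0 and 33.4 CPM in control and at 23.1 and 16.1 CPM in PTX (logFC −0.97 ± 0.20 (SE), 1.96-fold lower, adjusted p = 0.0283). In somata Slit1 was at 66.3 and 64.9 CPM in control and at 46.8 and 34.8 CPM in PTX, also without overlap. The other Slits, Slit2 and Slit3, had logFCs of −0.01 and −0.11 in processes and of 0.05 and 0.06 in somata.

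With the replicate block 4 members rose in processes, beside 5.1% of all tested genes, and 9 fell, beside 6.09%. Ntn4 had 36.1 and 26.7 CPM in control and 71.1 and 44.5 CPM in PTX processes, with a log2 difference of 0.97 in replicate 1 and 0.74 in replicate 2 (logFC 0.88 ± 0.24 (SE), adjusted p = 0.0835, and 7.1e-06 with the block). Ephb1 had 47.2 and 74.2 CPM in control and 67.7 and 93.7 CPM in PTX (logFC 0.41, adjusted p = 0.489, and 0.00416 with the block), where the groups overlapped. The transmembrane ligand Sema6d had a logFC of 0.39 (adjusted p = 0.106, and 0.0108 with the block). Epha4 was at 39.4 and 40.8 CPM in control and at 27.7 and 28.2 CPM in PTX (logFC −0.52, adjusted p = 0.0581, and 0.00375 with the block), and Plxna1 at 76.9 and 76.0 CPM and at 55.1 and 59.6 CPM (logFC −0.41, adjusted p = 0.0791, and 0.00554 with the block). The others called lower with the block but not in the reported fit were Plxnb3 (−1.32), Sema4f (−0.72), Sema4d (−0.67), Sema6b (−0.52) and Efnb3 (−0.48). Their adjusted p with the block was from 0.00496 to 0.0459. Of these, Sema4f differed most between its replicates, with a log2 difference of −1.32 in replicate 1 and −0.18 in replicate 2.

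The calls in processes also depended on single libraries, for the members as for all tested genes. The members' median logFC was 0.004 without processes control replicate 1 (all tested genes −0.008) and −0.15 without its replicate 2 (all tested genes −0.005). Without processes PTX replicate 1 it was −0.16 (all tested genes −0.014), and without its replicate 2 it was 0.03 (all tested genes −0.024). The logFCs of Unc5b (0.68 to 1.14), Plxnb1 (−0.77 to −0.76) and Slit1 (−1.25 to −0.73) kept their sign. Of 5 proliferation markers 3 rose with PTX in processes, with a summed CPM of 126 and 148 in control and 246 and 250 in PTX, and the astrocyte sum was 15026 and 13414 in control and 11524 and 12775 in PTX. The inhibitory neuron markers summed to 173 and 135 CPM in control and 285 and 218 in PTX processes, and the excitatory ones to 988 and 735 and to 526 and 523. Of the 6 excitatory markers 1 was called higher and 2 lower, and of the 5 tested inhibitory markers 1 was called higher and 0 lower. The part of these shifts in the changes of guidance genes was not tested.

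**Figure D3:**
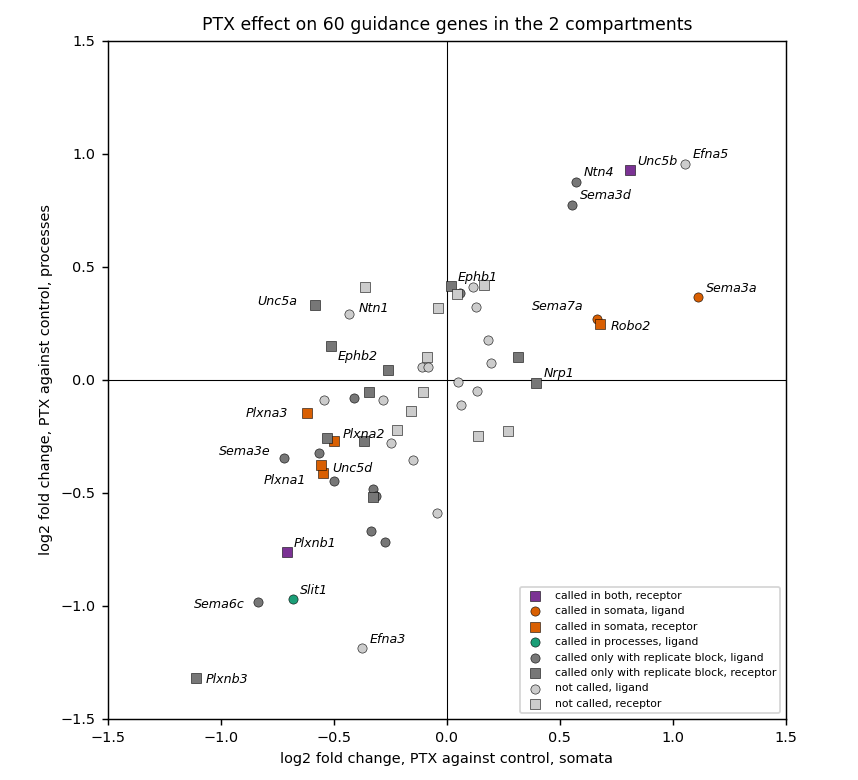
PTX effect (log2 fold change against control) of the 60 tested members in somata (x axis) and in processes (y axis). Circles are ligands and squares receptors, and colours show where a member was called. Dark grey stands for calls made with the replicate block but not in the reported fit. Unc5b lies at the upper right and Plxnb1 and Slit1 at the lower left, and Sema3a, Sema7a and Robo2 lie far to the right with smaller changes in processes (0.37, 0.27 and 0.24).

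Whether PTX acted differently in the 2 compartments was tested with an interaction term, the logFC with PTX in processes less the logFC in somata. The quasi-likelihood test called 0 of the 60 members and 0% of all 14309 genes, and the lowest adjusted p of a member was 0.999993. At an unadjusted p below 0.05 there were 8 members and 572 genes in all. The likelihood ratio test called 0 members and 4 genes, DESeq2 0 members and 4 genes, and the fit with the replicate block 0 members and 15 genes. Across the 60 members the logFCs in the 2 compartments had the same sign for 45 and opposite signs for 15. The largest positive differences were those of Unc5a (0.91 ± 0.23 (SE), unadjusted p = 0.00220), Plxnd1 (0.77 ± 0.31 (SE), unadjusted p = 0.0314) and Ntn1 (0.72 ± 0.25 (SE), unadjusted p = 0.0156), and for Sema3a, Robo2 and Nrp1 the change in processes was the smaller one, with differences of −0.75 ± 0.32, −0.43 ± 0.19 and −0.41 ± 0.15 (SE) and unadjusted p of 0.0413, 0.0402 and 0.0194. The calls of Sema3a, Sema7a and Robo2 in somata and of Slit1 in processes are therefore not shown to differ between the compartments.

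Of 110 other genes of the guidance pathways (30 co-receptors and partners, 11 other cues and 69 cytoplasmic effectors), 106 were tested. The 2 that were not matched in the table were Gfra1 and Ablim1, and Shh and Fes did not pass the filter. With PTX in somata 5 rose (4.72%, beside 2.09% of all tested genes) and 5 fell (4.72%, beside 1.5%). Kdr, a VEGF receptor that also takes part in Sema3e signalling (logFC 1.41), Grb10, an adaptor of receptor tyrosine kinases (0.76), and Lrig1, a transmembrane regulator of growth factor receptors (0.71), rose most. The adhesion molecules Cntn2 (−1.10) and L1cam (−0.94), both of the immunoglobulin superfamily, and Chn1, a Rac-GAP downstream of Epha4 (−0.70), fell most. In processes 6 rose (5.66%, beside 1.64% of all tested genes) and 8 fell (7.55%, beside 2.1%), with Ret (1.34), the exchange factor Ngef, which acts downstream of Eph receptors (1.20), and Lrig1 (1.10) at the top and Cntn2 (−1.60), Flrt3 (−0.95) and L1cam (−0.94) at the bottom.

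Between compartments of control cultures, the co-receptors and partners had 16 of 29 tested genes (55.2%) called lower in processes, beside 21.9% of all tested genes, and 2 (6.9%) higher, beside 25.8%. Of the cytoplasmic effectors 23 of 67 (34.3%) were called higher and 8 (11.9%) lower. These counts became 18 and 19 with upper quartile scaling, where 19.2% of all tested genes were called higher and 32.9% lower. With scaling by library size alone they were 0 and 63, where 92.7% of all tested genes were called lower. The median logFC of the effectors was 0.16 (−0.05 and −1.66 with those scalings) and that of the co-receptors −0.41 (−0.62 and −2.23). For all tested genes it was −0.05 (−0.25 and −1.86). A change of scaling moves all logFCs by nearly the same amount, so the effectors' place above this median is no test of the scaling. Among the called genes, the largest positive values were those of Ptpn11, a tyrosine phosphatase (2.09), Enah, an actin regulator at growth cone tips (1.62), and Arhgef12, which binds B-type plexins (1.58), and with scaling by library size alone these were 0.30, −0.19 and −0.22. The lowest among the called genes were those of the myelin inhibitor Omg (−1.66) and of the Nogo receptors Rtn4rl1 (−1.37) and Rtn4r (−1.14). In PTX-treated cultures 29 of the 106 (27.4%, beside 25.7% of all tested genes) were higher and 24 (22.6%, beside 24%) lower, with Ptpn11 (2.08), Enah (1.59) and Arhgef12 (1.53) again at the top and Mag (−2.48), Rtn4rl1 (−1.70) and Kdr (−1.57) at the bottom. Dcc, the netrin receptor that is no member by the symbol rule, had a logFC of 0.46 in control cultures (adjusted p = 0.0148), which was 0.26 (adjusted p = 0.116) with upper quartile scaling and −1.35 with scaling by library size alone.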

How the data were processed

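Whole-number counts of 28909 gene symbols were deposited for 8 libraries. For these counts the authors trimmed the reads, aligned them with Subread subjunc to the rat genome, counted them with featureCounts on an Ensembl annotation and summed them by symbol, without normalization, while the submitters' processing notes name STAR, featureCounts, edgeR and the build Rnor_6.0, so the aligner is uncertain. Symbols were summed and the strand setting of the counting is not given in the sources used here, so that paralogues, overlapping and antisense genes can share reads. The authors' tables of their own PTX comparisons (log2 fold changes, mean log2 CPM, test statistics, p-values and FDR) were not used.

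A gene had to exceed 20 reads in 2 or more libraries, which 14309 did. The counts of all 8 libraries were fitted with 1 coefficient for each of the 4 groups in edgeR 4.0.16 (R 4.3.3), with TMM factors (1.81 to 1.93 in somata, 0.486 to 0.570 in processes), glmQLFit and glmQLFTest, with Benjamini-Hochberg adjustment in each of 5 contrasts and a threshold of 0.05. Each SE was derived as |logFC| over the root of the F statistic. Nothing in the labels says that replicates came from separate cultures, so p-values measure the spread between these libraries, which correlated with r of 0.978 to 0.987 within groups. Counting at these depths adds to the error of members with few reads.

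The replicate numbers in the labels were taken as pairs, because the deviations of same-numbered libraries (replicate 2 against 1) correlated across genes between all 6 pairs of groups, with r from 0.274 to 0.540. The labels and methods do not say what the numbers mark. The block lowered the common dispersion from 0.0132 to 0.00459.

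The members and lists were chosen with earlier results of these data known. Named were members called with PTX or in the interaction, in the reported fit or with the block. Also named were up to 8 of the largest control compartment differences in each direction among called members (3 were called higher), the 3 highest levels per class, the members that failed the filter and, of the other pathway genes, the 3 largest changes per contrast and direction among called genes. Efna3, Efna4, Ephb2, Ntn3, Nrp2, Plxnd1, Robo1, Unc5 genes, Dcc, the reads of Sema3g and Epha2, and the members named for PTX cultures or by an unadjusted p were added after their values were seen. Alternatives tried: DESeq2 1.42.0, edgeR's likelihood ratio test, library size or upper quartile scaling, no filter, at least 10 reads in every library, the replicate block, only the 4 libraries compared, and leaving out each library. Promoters came from RefSeq's table for GRCr8. Transcript lengths were not used here.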

Additional observations from a re-analysis of the deposited data

Results flagged for a closer look

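In 3 of the 60 tested members (5%), and in 457 of all 14309 tested genes (3.19%), every PTX library lay on one side of the controls in somata and on the opposite side in processes. Unc5a, a netrin receptor, was at 20.8 and 23.1 CPM in somata control, 13.4 and 15.9 in somata PTX, 12.2 and 16.1 in processes control and 18.6 and 16.9 in processes PTX, and the logFC with PTX in processes less that in somata was 0.91 (unadjusted p = 0.00220 in edgeR's interaction test, and adjusted p = 0.0580 with the replicate block). Ntn1 was at 5.65 and 5.09 CPM in somata control, 3.74 and 4.23 in somata PTX, 8.14 and 8.10 in processes control and 9.07 and 10.8 in processes PTX, a difference of 0.72 (unadjusted p = 0.0156). Ephb2 was at 9.90 and 12.8 CPM in somata control, 7.73 and 8.21 in somata PTX, 5.69 and 6.11 in processes control and 6.43 and 6.64 in processes PTX, a difference of 0.66 (unadjusted p = 0.0276). After adjustment over all genes the interaction called 0 of these 3 with the quasi-likelihood test, the likelihood ratio test, DESeq2 or the block.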

How the results depend on the processing

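Counts of called members are given here as rose and fell in somata, then rose and fell in processes, then higher and lower in processes of control and of PTX cultures. Shares of all tested genes called stand in brackets in the same order. The reported 4, 5, 1, 2, 3, 33, 5 and 26 (2.09, 1.5, 1.64, 2.1, 25.8, 21.9, 25.7 and 24%) became 8, 21, 4, 9, 5, 38, 5 and 32 (7.21, 6.79, 5.1, 6.09, 29.8, 28, 30 and 29.6%) with the replicate block. They were 5, 9, 2, 5, 4, 34, 5 and 27 (3.78, 3.01, 2.96, 3.67, 26.6, 23.9, 26.5 and 25.7%) with the likelihood ratio test. DESeq2 gave 3, 6, 2, 3, 2, 26, 5 and 24 (2.02, 1.5, 2.17, 2.41, 23.6, 16.5, 23.8 and 18.3%). With no filter they were 7, 14, 3, 8, 4, 37, 5 and 29 (2.88, 2.16, 2.32, 2.67, 16.9, 15.9, 16.8 and 17.1%). Library size scaling gave 4, 1, 2, 2, 0, 58, 1 and 58 (2.45, 0.978, 1.66, 1.54%, 191 genes, 92.7%, 181 genes and 93.1%). Upper quartile scaling gave 4, 6, 1, 2, 2, 38, 4 and 33 (2.02, 1.75, 1.71, 2.12, 19.2, 32.9, 20.3 and 33.3%). A minimum of 10 reads in every library gave 4, 5, 1, 2, 3, 30, 4 and 26 (2, 1.61, 1.89, 2.38, 27, 25.2, 27 and 26.2%). Only the 4 libraries compared gave 4, 9, 1, 2, 4, 33, 5 and 25 (2.38, 1.82, 1.31, 1.15, 26, 22.8, 25.7 and 23.6%). Leaving out 1 library at a time gave 0 to 4, 0 to 7, 0 to 1, 0 to 3, 2 to 3, 19 to 33, 3 to 5 and 21 to 28. The interaction stayed at 0 members under each of these except only the 4 libraries compared, where it could not be fitted. Of the log2 fold changes of the members named by rule, those of Ephb1 (−0.39) and Ntn1 (−1.21) between compartments of control cultures changed sign, both with library size scaling, where the median of all genes was −1.86. Of all 60 members, 1 was then positive in either kind of culture, where 10 had been in control and 14 in PTX cultures, so that Ntn3 and Unc5b (−0.89 and −1.49, control) and Ephb1, Ntn1, Plxnd1 and Unc5b (−0.02, −0.50, −1.06 and −1.39, PTX) also turned. The replicate block turned no call of a named member off. Depth limits members below about 1 CPM, such as Epha1 and Efna4, most in processes.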
